A study of Mus musculus with 12 samples.

Results

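The dendritic cell genes described here are the integrin chain Itgax, the lectins Siglech, Clec9a, Cd209a and Clec10a, the transcription factors Zbtb46, Batf3 and Tcf4, the chemokine receptor Xcr1 and the protease inhibitor Cst3. They were taken by name, with earlier results of these data known. Every probe set of the array whose annotation gives exactly 1 gene symbol and that symbol only was assigned to them. Of the 10 genes, 9 were measured, by 17 of 45037 probe sets, and they are 9 of the 18193 genes that the arrays measured. For Clec9a no probe set is named in the annotation used here. Zbtb46 has 4 probe sets and Tcf4 has 6, and the other 7 genes have 1 each. A gene is represented by its brightest probe set, taken as the mean of all 12 arrays, and the others serve as checks.

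RNA was measured on 12 Affymetrix MG430 v2 arrays of short-term hematopoietic stem cells (ST-HSC) and granulocyte/monocyte progenitors (GMP) sorted from mouse liver, with 3 arrays of each population for each genotype. The sample records give newborns of strain C57Bl/6, whereas the paper describes these ST-HSC as fetal liver cells and gives a mixed strain. Mutant (KI) mice were homozygous for PU.1 Q202L, a knock-in change of the transcription factor PU.1 that retains DNA binding and impairs its contact with the coactivator c-Jun. Wild-type (WT) mice were littermates from crosses of heterozygous parents. The KI mice die around birth, so that cells could be taken no later than that age. ST-HSC were sorted as lineage-negative cells with c-kit and Sca-1 and without CD150. The sample records give CD48-positive ST-HSC, whereas the title of the series and the paper give CD48-negative ones. The paper counts CD48-positive cells of this stem cell fraction as multipotent progenitors. Cd48 stood at a log2 value of 11.58 to 12.06 in the ST-HSC arrays. GMP were lineage-negative and Sca-1-negative cells with c-kit, CD34 and high FcγRII/III. For the KI mice the paper describes sorting a GMP-like population with intermediate CD34 instead. In GMP the genotype and the CD34 level of the sorted cells thus cannot be told apart. The records do not say which arrays share an animal or a litter, so that the spread behind a p-value may be technical and not that between animals.

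Dendritic cells take up antigen and present it to T cells, and they arise in the bone marrow and fetal liver from progenitors that carry the receptors Flt3 and Csf1r. Conventional dendritic cells of type 1, which depend on Irf8 and Batf3, carry Xcr1 and Clec9a and present antigen of dead cells. Those of type 2 carry lectins such as Cd209a and Clec10a, and plasmacytoid dendritic cells, which depend on Tcf4, carry Siglech and make type I interferon. PU.1 itself is known to be required for the formation of dendritic cells and binds DNA together with Irf8 at composite sites.

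Arrays of 1 group correlated at 0.963 to 0.990 over all probe sets. WT ST-HSC replicate 3 stood apart from the other WT ST-HSC arrays in part of the dendritic cell genes, as given with Xcr1. Xist, which female cells express from their silent X chromosome, stood at 10.67 to 11.74 in replicates 1 and 3 of both WT groups and at 2.98 to 3.78 in WT replicate 2 and in all 6 KI arrays. Xist thus moved with the genotype in part, and with its level as a covariate of the fit 3 of the 9 genes were lower in KI ST-HSC and 0 in KI GMP-like cells, against 3 and 1 without it. Without the WT arrays of high Xist, which leaves 1 WT array per population, assumed to vary like the other groups, 3 and 1 were lower. Spi1, which encodes PU.1, stood at 8.08 to 8.18 in KI and 7.89 to 8.03 in WT ST-HSC, and at 8.28 to 8.95 in KI and 7.95 to 8.47 in WT GMP. These levels do not check the point mutation. The median log2 value of an array was 5.00 to 5.10 in ST-HSC and 4.70 to 4.79 in GMP, so that levels were not tested between the populations.

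In ST-HSC, 3 of the 9 measured dendritic cell genes were lower in KI than in WT and none was higher. They were Itgax with a 13.4-fold, Cst3 with a 4.51-fold and Clec10a with a 3.11-fold lower level, and all 9 genes had a KI minus WT difference below 0, with a median of −1.43 on the log2 scale against −0.02 over all genes. In limma, with Benjamini-Hochberg adjustment over all probe sets, 1.68% of all genes were lower and 1.33% were higher in this comparison, calls being made at an adjusted p under 0.05. All 3 KI arrays lay below all 3 WT arrays for 6 of the 9 genes, against 11.2% of all genes. Without adjustment 6 of the 9 had a p under 0.05, all lower, against 14.3% of all genes in either direction. SAM, the test the study used, called 0 of the 9 in either population. In bulk RNA, fewer cells that express a gene and less RNA per cell cannot be told apart. In GMP 1 of the 9 genes, Clec10a, was lower in KI, by 2.39-fold, and none was higher, with a median difference of −0.23 against −0.03 over all genes. There 1.4% of all genes were lower and 1.19% higher, and the KI arrays lay below the WT arrays for 5 of the 9 genes against 11.1% of all genes. Without adjustment 4 of the 9 had a p under 0.05, all lower, against 15.9% of all genes in either direction.

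**Figure D1:**
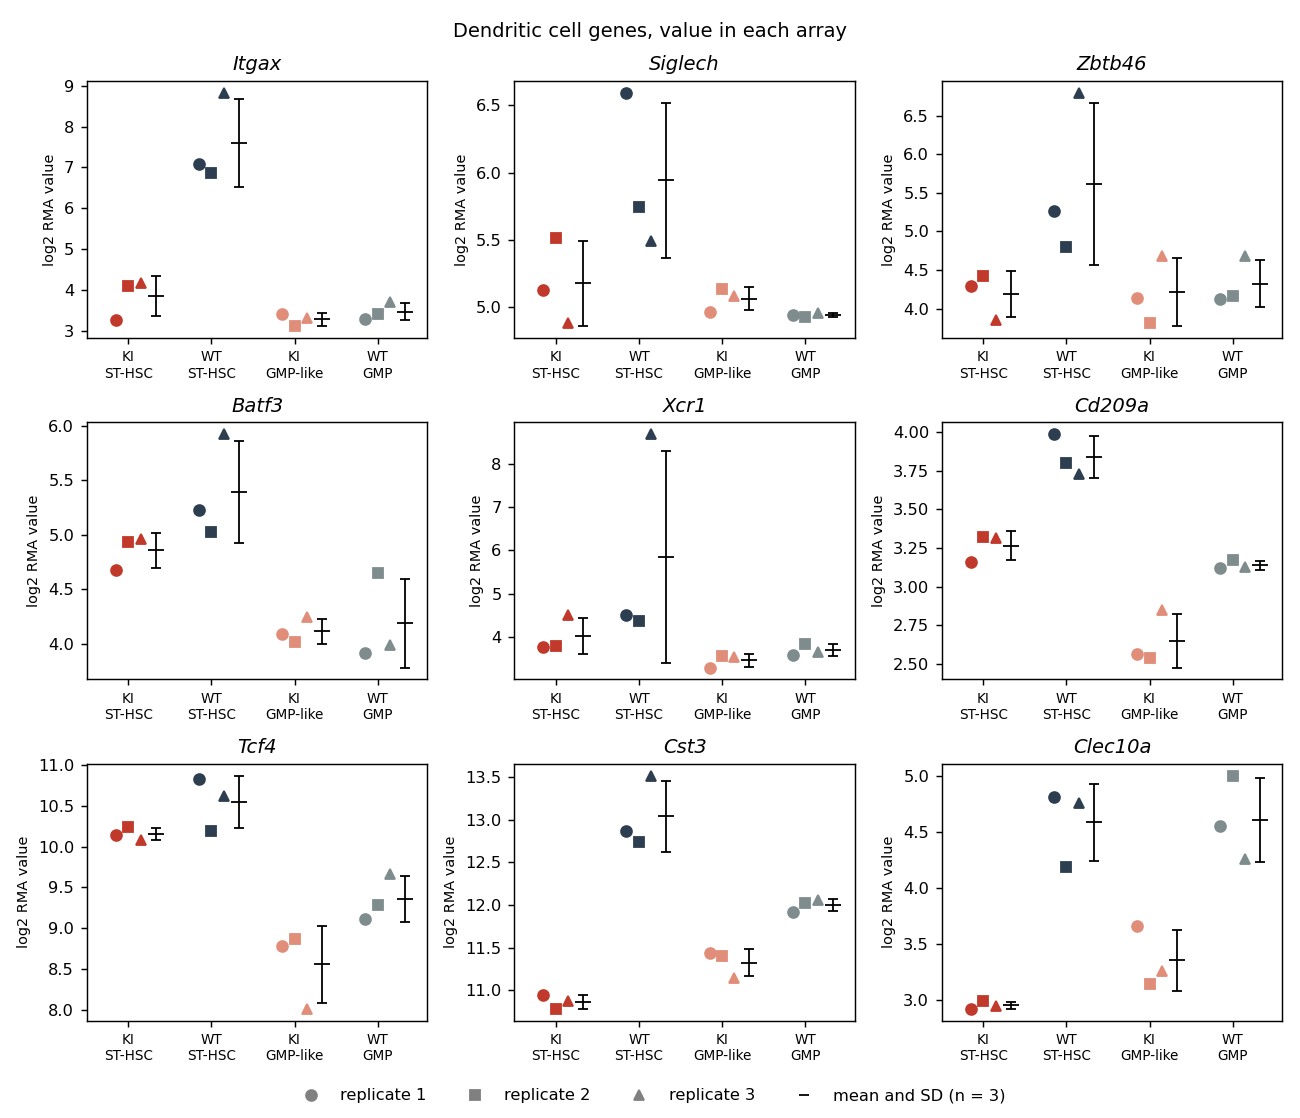
Log2 RMA value (vertical axis, own scale in each panel) of the 9 measured dendritic cell genes in each of the 12 arrays, with 1 symbol per replicate and a black bar for the mean and SD of the 3 arrays of a group. The KI and WT ST-HSC arrays are separate for Itgax, Zbtb46, Batf3, Cd209a, Cst3 and Clec10a. Xcr1 is high in 1 array, WT ST-HSC replicate 3, at 8.70.

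Itgax, Cst3 and Zbtb46 are markers shared by several dendritic cell types. Itgax encodes CD11c, the integrin chain by which dendritic cells are usually recognized. Its log2 RMA value was 7.08, 6.86 and 8.83 in the WT ST-HSC arrays and 3.27, 4.10 and 4.17 in the KI ST-HSC arrays. The KI minus WT difference was −3.74 ± 0.444 (SE, n = 3 arrays a group, 95% confidence interval −4.73 to −2.76, limma adjusted p = 0.00157). Among the probe sets of each array, the median percentile over the 3 arrays was 72.0 in WT and 33.8 in KI. Itgax was thus above the middle of the WT arrays and below the middle of the KI arrays. In GMP, Itgax was low in both genotypes, at 3.29, 3.41 and 3.70 in WT and 3.40, 3.11 and 3.31 in KI (percentiles 25.3 and 22.7), with a difference of −0.19 (95% confidence interval −1.18 to 0.79, adjusted p = 0.917).

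Cst3 encodes cystatin C, a secreted inhibitor of cysteine proteases that is abundant in dendritic cells and is made by many other cells too. Its value was 12.87, 12.73 and 13.51 in WT ST-HSC and 10.94, 10.78 and 10.87 in KI ST-HSC, with a difference of −2.17 ± 0.19 (SE, n = 3, adjusted p = 0.000279). Both groups were in the top of their arrays, at percentiles 99.4 and 96.3, so that Cst3 was among the brightest probe sets in KI too. In GMP the values were 11.92, 12.02 and 12.05 in WT and 11.44, 11.40 and 11.15 in KI. These groups did not overlap, but the difference of −0.67 (95% confidence interval −1.09 to −0.25) did not pass the test (adjusted p = 0.11). It passed when WT ST-HSC replicate 3 was left out of the fit (adjusted p = 0.0314).

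Zbtb46 is a transcription factor found in conventional and not in plasmacytoid dendritic cells. The brightest of its probe sets, 1440489_at, read 5.27, 4.79 and 6.80 in WT ST-HSC and 4.29, 4.42 and 3.85 in KI ST-HSC. The groups did not overlap, and the difference of −1.43 (95% confidence interval −2.41 to −0.45) did not pass the test (adjusted p = 0.162). The other 3 probe sets had differences of −0.97, −2.86 and −1.66 with adjusted p of 0.223, 0.104 and 0.311, and in each of them too every KI ST-HSC array lay below every WT ST-HSC array. In GMP the 4 probe sets differed by −0.25 to −0.11, with values of 4.13, 4.16 and 4.68 in WT and 4.14, 3.81 and 4.68 in KI for 1440489_at, so that the genotypes overlapped. Zbtb46 stood highest in WT ST-HSC replicate 3, and without that array its difference in ST-HSC was −0.84 (adjusted p = 0.285).

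The promoters of these 3 genes are shown because the mutation concerns the contact of PU.1 with c-Jun, a subunit of AP-1. The sequences are from RefSeq (GRCm38.p6), 300 bases each around the transcription start used there, read 5′ to 3′ on the strand of the gene, at chr7:128129300-128129599 (plus strand) for Itgax, chr2:148875463-148875762 (minus strand) for Cst3 and chr2:181424339-181424638 (minus strand) for Zbtb46, where the start used lies inside the longest annotated extent of the gene. Capitals mark matches to the AP-1 motif TGANTCA in Itgax and Zbtb46 and to the PU.1 core GAGGAA in Cst3.
Itgax promoter: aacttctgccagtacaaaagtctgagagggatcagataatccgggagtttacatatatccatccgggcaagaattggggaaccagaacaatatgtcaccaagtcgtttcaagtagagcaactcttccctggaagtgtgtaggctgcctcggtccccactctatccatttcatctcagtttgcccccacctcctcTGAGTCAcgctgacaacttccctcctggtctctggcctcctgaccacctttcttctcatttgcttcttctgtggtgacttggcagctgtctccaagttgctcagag
Cst3 promoter: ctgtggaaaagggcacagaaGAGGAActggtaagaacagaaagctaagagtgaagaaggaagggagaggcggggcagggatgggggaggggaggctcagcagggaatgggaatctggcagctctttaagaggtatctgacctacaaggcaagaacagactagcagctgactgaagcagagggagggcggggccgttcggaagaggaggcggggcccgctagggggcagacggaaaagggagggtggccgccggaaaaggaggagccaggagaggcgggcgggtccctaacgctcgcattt
Zbtb46 promoter: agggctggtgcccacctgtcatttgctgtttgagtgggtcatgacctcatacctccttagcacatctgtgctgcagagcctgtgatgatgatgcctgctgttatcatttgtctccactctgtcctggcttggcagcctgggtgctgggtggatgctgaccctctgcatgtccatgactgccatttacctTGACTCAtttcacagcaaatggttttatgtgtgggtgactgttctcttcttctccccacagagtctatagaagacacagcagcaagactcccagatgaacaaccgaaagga
The AP-1 matches begin at position −56 in Itgax and −61 in Zbtb46, and the PU.1 core match at −230 in Cst3, counted from the start. The longest annotated extent of Zbtb46 begins, on its minus strand, at 181493262, so that the Zbtb46 window lies inside the gene. Its AP-1 match is thus not shown to lie in a promoter that these cells use. Of the 10 dendritic cell genes, 8 had a promoter in the table. On either strand, TGANTCA was in 2 of the 8, counting the Zbtb46 window, and in 7.81% of 32851 promoters of all genes. GAGGAA was in 3 of the 8 (Siglech, Batf3 and Cst3) and in 28.3% of all. The composite motif of PU.1 and interferon regulatory factors, searched as GGAANNGAA, was in 1 of the 8 (Cd209a, with 2 matches) and in 8.24% of all. No match of the 3 motifs overlapped another in these promoters. The letters are a description of these windows, and binding was not measured in these samples.

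Batf3 and Xcr1 belong to the type 1 conventional dendritic cell. Batf3, a factor of the AP-1 superfamily that pairs with Jun proteins, stood at 5.23, 5.03 and 5.93 in WT ST-HSC and 4.67, 4.94 and 4.96 in KI ST-HSC. The groups did not overlap, and the difference of −0.54 (95% confidence interval −1.09 to 0.02) did not pass the test (adjusted p = 0.406). Batf3 lay near the middle of all arrays of ST-HSC, at percentiles 52.3 in WT and 47.6 in KI, and its GMP values of 3.92, 4.65 and 3.99 in WT and 4.08, 4.01 and 4.24 in KI overlapped.

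Xcr1, the receptor for the chemokine Xcl1 made by activated T and NK cells, was measured at 4.50, 4.37 and 8.70 in WT ST-HSC and at 3.77, 3.79 and 4.51 in KI ST-HSC. The difference of −1.83 ± 0.898 (SE, n = 3) did not pass the test (adjusted p = 0.434), and WT replicates 1 and 2 lay within the range of the KI arrays. The high value was in 1 array. Without WT ST-HSC replicate 3 the difference was −0.41 (adjusted p = 0.561). In GMP, Xcr1 stood at 3.57, 3.84 and 3.65 in WT and at 3.28, 3.55 and 3.52 in KI, a difference of −0.23 (adjusted p = 0.954).

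Of all 18193 genes, Xcr1 had the largest gap of WT ST-HSC replicate 3 over both other WT ST-HSC arrays, at 4.20. Itgax ranked 78 by this gap, Zbtb46 123, Batf3 707 and Cst3 781. Cd209a, Clec10a, Tcf4 and Siglech were not higher in replicate 3 than in both other arrays. Of 12 further genes of type 1 conventional dendritic cells, 11 were higher in replicate 3 than in both others and 7 of them by more than 1, whereas 30.6% of all genes were higher and 1.89% were higher by more than 1. Cadm1, an adhesion molecule of these cells, stood at 12.25 in replicate 3 and at 10.31 and 9.49 in the others, and Itgae, the CD103 integrin chain, at 8.03 against 5.46 and 5.49. Of 11 further plasmacytoid genes, 8 were higher in replicate 3 than in both others and 2 of them by more than 1, of 12 transcription factors 8 and 1, of 13 maturation and migration genes 6 and 3, and of 9 further type 2 genes 2 and 0. Higher values in this array were thus not limited to type 1 genes, and the lists were not tested against each other. The lists were chosen with earlier results of these data known, so that the shares over all genes are no independent check. Replicate 1 was the highest for 7 of the 9 type 2 genes, and replicate 2 for 7 of the 13 maturation and migration genes. Replicate 2 exceeded both others by more than 1 in 4 of 7 B lineage markers. Over all genes it did so for 2.47%, and replicate 1 for 1.24%. Mean levels of 8 granulocyte markers were 8.84 in replicate 3 and 9.82 and 10.09 in the others, those of 10 macrophage markers 5.02 against 4.50 and 4.49, those of 4 hepatocyte markers 7.61 against 6.50 and 7.12, and those of 7 B lineage markers 5.61 against 6.09 and 6.90. The part of other cells in the difference of this array was not tested.

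**Figure D2:**
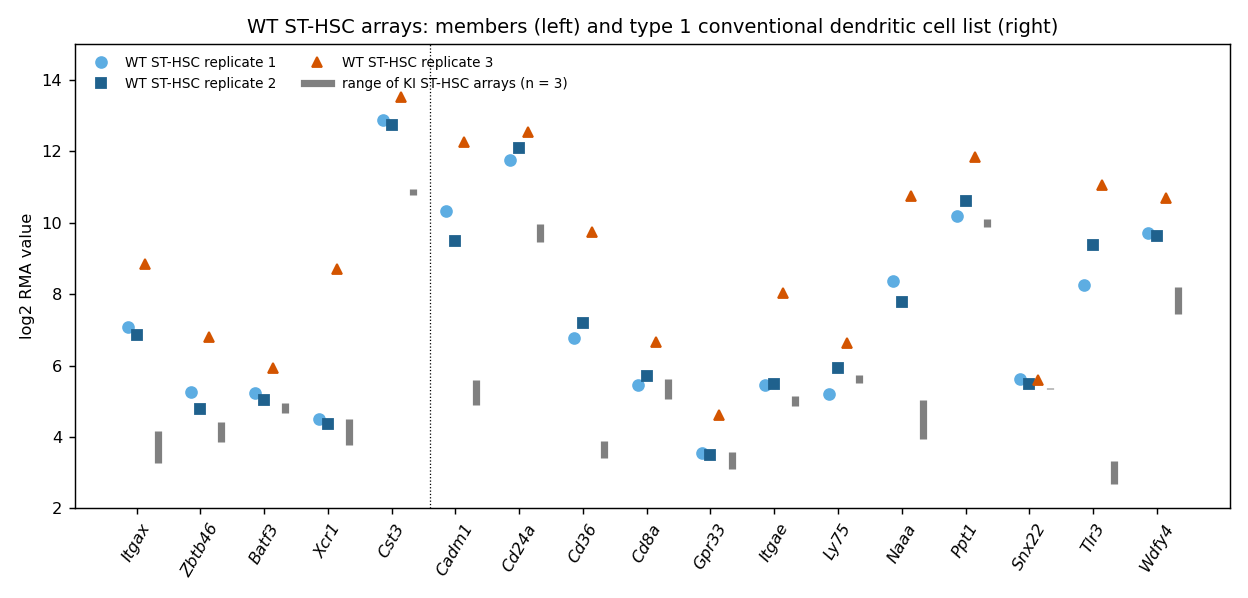
Log2 RMA value of 5 of the described genes (left of the dotted line) and of 12 further type 1 conventional dendritic cell genes (right) in the 3 WT ST-HSC arrays, 1 symbol each, with a grey bar for the range of the 3 KI ST-HSC arrays. Replicate 3 is the highest WT array for all 5 genes on the left and for 11 of the 12 on the right.

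Itgax and Cst3 did not rest on that array. Without it the ST-HSC difference was −3.12 (adjusted p = 0.000635) for Itgax and −1.93 (adjusted p = 0.000263) for Cst3, and 3 of the 9 genes were again lower.

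Cd209a and Clec10a are C-type lectins of type 2 conventional and monocyte-derived dendritic cells, and Clec10a is also found on macrophages. Clec10a stood at 4.81, 4.19 and 4.76 in WT ST-HSC and at 2.92, 2.99 and 2.95 in KI ST-HSC. The difference was −1.64 ± 0.228 (SE, n = 3, adjusted p = 0.0039), and the median percentile over the arrays was 12.1 in KI and 46.5 in WT. In GMP the pattern was alike, with 4.56, 5.01 and 4.26 in WT and 3.66, 3.14 and 3.26 in KI, and a difference of −1.25 ± 0.228 (SE, n = 3, adjusted p = 0.0211). Clec10a was the 1 gene of the 9 that passed the test in both populations. It was dim, at no more than 5.01 in any array, and lay below the middle of the WT arrays too (percentiles 46.5 in ST-HSC and 48.1 in GMP).

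The call of Clec10a in GMP depended on the arrays. Its adjusted p was 0.0578, 0.0733, 0.0589 and 0.0525 without KI GMP replicate 2, KI GMP replicate 3, WT GMP replicate 1 or WT GMP replicate 2, respectively, 0.112 when only the 6 GMP arrays were fitted and 0.0822 with the Xist level as a covariate. Over these settings the difference was between −1.28 and −1.06. Of the 10 macrophage markers, none passed the test in GMP. Of the markers, 3 were lower at an unadjusted limma p under 0.05, against 1672 of all 18193 genes. Differences were below 0 for 9 of 10, against 9991 of all 18193 genes. All KI arrays lay below all WT arrays for 6 of 10, against 11.1% of all genes. The mean level of the markers was 3.65 to 3.72 in KI and 4.09 to 4.46 in WT. Adgre1, which encodes the macrophage marker F4/80, stood at 2.84 to 3.23 in KI and 3.93 to 4.40 in WT GMP. The part of macrophages in the difference of Clec10a was not tested.

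Cd209a, the mouse relative of the human lectin DC-SIGN, was dim in all groups. It stood at 3.99, 3.80 and 3.73 in WT ST-HSC and at 3.16, 3.33 and 3.31 in KI ST-HSC. In GMP it stood at 3.12, 3.17 and 3.13 in WT and at 2.57, 2.54 and 2.85 in KI. The KI arrays lay below the WT arrays in both populations, with differences of −0.57 (95% confidence interval −0.86 to −0.29) in ST-HSC and −0.49 (−0.78 to −0.20) in GMP that did not pass the test (adjusted p = 0.0509 and 0.0886). In ST-HSC it passed in 5 of 22 alternatives, with adjusted p down to 0.025. In all 4 groups the median percentile over the arrays was at or below 28.9.

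Siglech and Tcf4 are genes of the plasmacytoid dendritic cell. Siglech, a sialic acid-binding receptor of these cells, read 6.59, 5.74 and 5.50 in WT ST-HSC and 5.13, 5.52 and 4.89 in KI ST-HSC. These ranges overlapped, and the difference of −0.77 (95% confidence interval −1.33 to −0.20) did not pass the test (adjusted p = 0.202). In GMP Siglech was the 1 gene of the 9 with a difference above 0, at 0.12 (adjusted p = 0.905). All 3 KI GMP arrays, at 4.97, 5.14 and 5.08, lay above the WT arrays at 4.94, 4.93 and 4.96.

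Tcf4 encodes the E protein E2-2, which plasmacytoid dendritic cells need and which B lineage and stem cells also express. Its brightest probe set, 1416724_x_at, which can bind other transcripts too, read 10.82, 10.19 and 10.62 in WT ST-HSC and 10.14, 10.24 and 10.08 in KI ST-HSC. The groups overlapped, with a difference of −0.39 (adjusted p = 0.587). The other 5 probe sets differed by −0.85 to −0.28 and none passed the test, although in 4 of the 5 the KI arrays lay below the WT arrays. In GMP the values of 1416724_x_at were 9.12, 9.29 and 9.66 in WT and 8.79, 8.88 and 8.02 in KI, with a difference of −0.79 (95% confidence interval −1.34 to −0.24, adjusted p = 0.148).

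**Figure D3:**
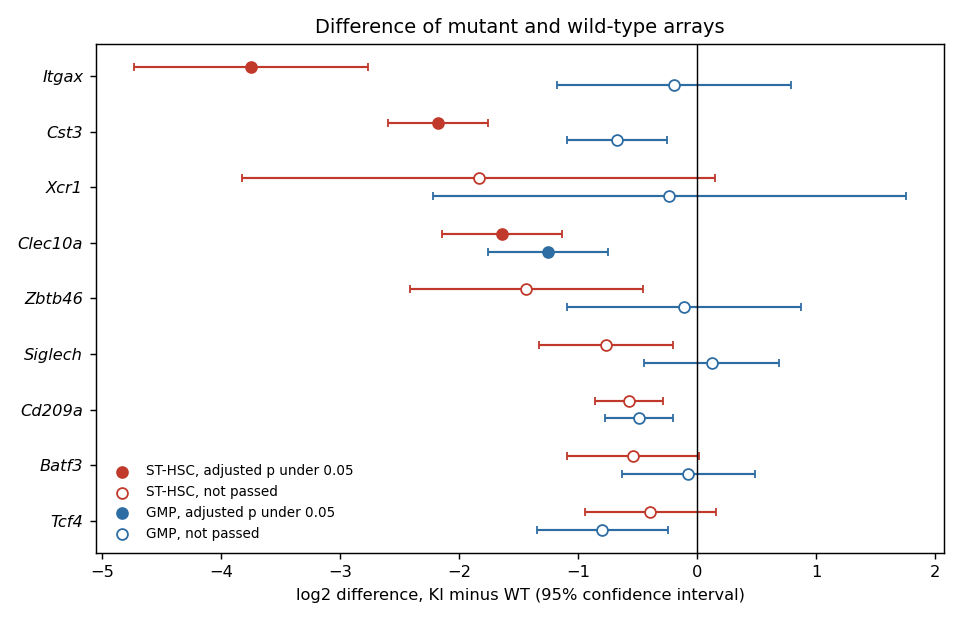
Log2 difference of KI minus WT (horizontal axis) of the 9 genes in ST-HSC (red) and GMP (blue) with 95% confidence intervals from limma for each gene alone, filled where the adjusted p was under 0.05. In ST-HSC all 9 points lie below 0 and 3 are filled, and in GMP 1 is filled.

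The difference between the populations was tested for each gene as the GMP difference minus the ST-HSC difference. The fit took the arrays as independent. Xist was high in replicates 1 and 3 and low in replicate 2 of both WT groups. Whether same-numbered WT arrays of ST-HSC and GMP share animals was not tested. None of the 9 genes passed the test in limma at an adjusted p under 0.05, which 0.0495% of all genes did. Without adjustment 3 of the 9 had a p under 0.05, against 8.45% of all genes. They were Itgax with 3.55 (adjusted p = 0.101), Cst3 with 1.50 (adjusted p = 0.107) and Siglech with 0.89 (adjusted p = 0.573). Itgax passed when WT ST-HSC replicate 3 was left out (2.93, adjusted p = 0.0335). For Clec10a the difference between the populations was 0.38 (95% confidence interval −0.33 to 1.10, adjusted p = 0.837).

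After the mean of each population was subtracted, the genes whose values over the 12 arrays were most like those of Itgax were Cxcr3 (r = 0.987), Mycl (0.982) and Ifi207 (0.976). Those most like Cst3 were Tlr3 (0.969), Ifi27l2a (0.968) and Ctsh (0.967), and those most like Clec10a were Coro1a (0.968), Tgfbi (0.965) and Met (0.965). Mycl, a member of the Myc family, is used by dendritic cells, and Ctsh is a cysteine protease of lysosomes. Among the 9 genes, the pair most alike was Itgax and Cst3 (r = 0.945), followed by Cd209a and Clec10a (0.904), and Siglech and Xcr1 were least alike (0.003). These correlations describe 12 arrays that share the contrast of genotypes and include the array that stood apart.

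Further genes of dendritic cells were described by lists, which were chosen with earlier results of these data known. Over all genes, 1.68% were lower and 1.33% higher in KI ST-HSC, and 1.4% and 1.19% in KI GMP-like cells. At an unadjusted limma p under 0.05, 1331 of 18193 genes were lower and 1274 higher in ST-HSC. In GMP these were 1672 and 1213. Of 12 further type 1 conventional dendritic cell genes, 6 fell in KI ST-HSC and none rose, with a median of −1.72. The double-stranded RNA receptor Tlr3 differed by −6.44 (adjusted p = 0.00111), with values of 8.26, 9.38 and 11.06 in WT and 2.70 to 3.34 in KI. Cadm1 differed by −5.52 (adjusted p = 0.0166), the lipid hydrolase Naaa by −4.54 (adjusted p = 0.0128) and the scavenger receptor Cd36 by −4.22 (adjusted p = 0.0104). Cd24a, a surface glycoprotein of many immature blood cells, differed by −2.47 (adjusted p = 0.0028) and Wdfy4, which cross-presentation requires, by −2.13 (adjusted p = 0.0137). All other probe sets of Cd36, Tlr3 and Wdfy4 did not pass, nor did 1 of the other 2 of Naaa. The count of 6 was 5 without WT ST-HSC replicate 3, 3 without KI ST-HSC replicate 2 or 3, 2 with the Xist covariate and 1 by SAM. In GMP 1 of the 12, Cd24a, fell, by 2.25 (adjusted p = 0.00627), with a median of −0.60 for the list. Cadm1 stood at 9.39 and Naaa at 6.58 in WT GMP replicate 3 and at 5.13 and 5.44, and 3.82 and 4.86, in the other WT GMP arrays. Of the 12 genes, 7 were highest in that array among the WT GMP arrays and 3 exceeded both others by more than 1, against 33.4% and 1.93% of all genes, while Xcr1, at 3.65, did not.

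Of 9 further type 2 genes, 1 fell in KI ST-HSC, the tumor necrosis factor family member Ltb (−0.93, adjusted p = 0.0102), and 1 in KI GMP-like cells, the lectin receptor Clec4a2 (−2.27, adjusted p = 0.0274), whose other probe set differed by −0.30 (adjusted p = 0.485). The medians were −0.61 and −0.52, and both counts were 0 when only the 6 arrays of the comparison were fitted, with the Xist covariate and by SAM. Of 11 further plasmacytoid genes, 2 fell in ST-HSC (0 by SAM) and none in GMP, where 3 were lower at an unadjusted p under 0.05 (medians −0.59 and 0.04). They were Pld4, an endolysosomal nuclease (−4.41, adjusted p = 0.00126), with values of 8.40, 7.90 and 9.78 in WT and 4.08, 4.84 and 3.93 in KI, and Irf7, the interferon regulatory factor of type I interferon production (−2.09, adjusted p = 0.00302).

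**Figure D4:**
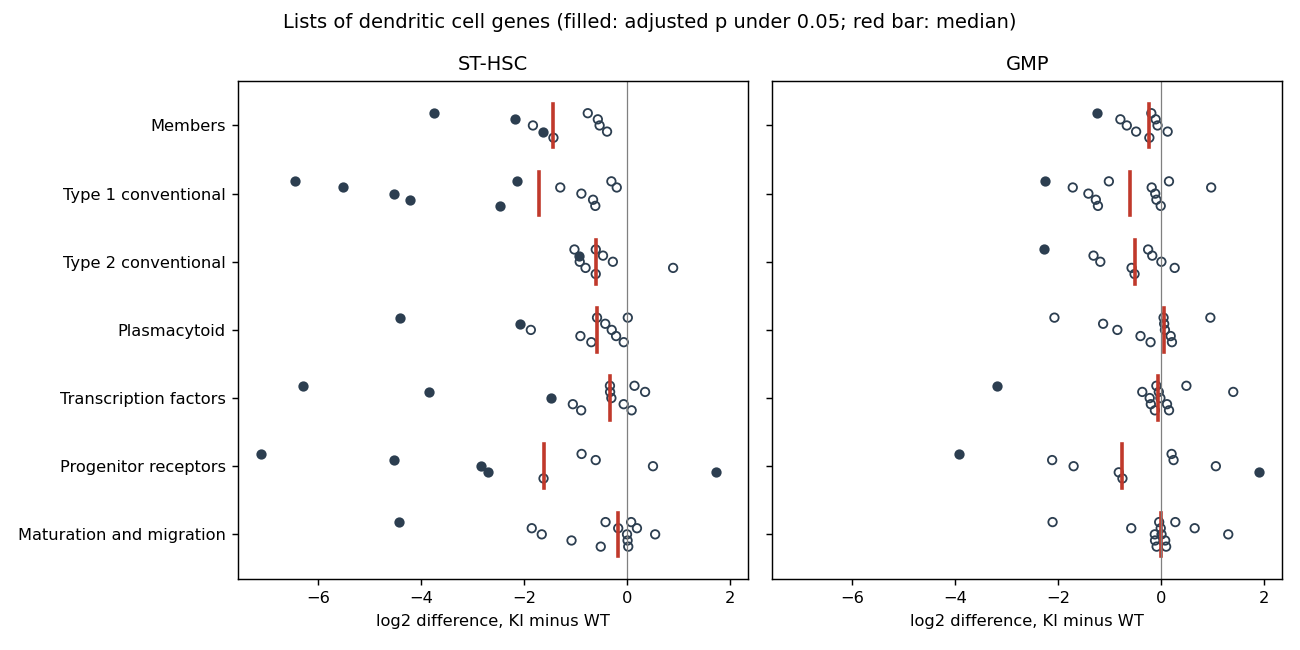
Log2 difference of KI minus WT of each measured gene (1 dot per gene) for the 9 described genes and 6 lists of further dendritic cell genes, in ST-HSC (left) and GMP (right), filled where the adjusted p was under 0.05, with a red bar at the median. The type 1 conventional list has a median of −1.72 in ST-HSC with 6 of 12 filled, and the maturation list has a median of −0.18 with 1 of 13 filled.

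Among 12 transcription factors of dendritic cells other than the described ones, 3 fell in KI ST-HSC and 1 in KI GMP-like cells. Irf8, required for type 1 and plasmacytoid cells, stood at 11.13, 10.95 and 11.75 in WT ST-HSC and at 4.55, 4.52 and 5.86 in KI ST-HSC. In GMP it stood at 8.98, 9.57 and 8.64 in WT and 6.18, 6.11 and 5.34 in KI, and it fell by 3.18 (adjusted p = 0.00291). Id2, an inhibitor of E proteins such as Tcf4, differed by −3.85 (adjusted p = 0.0117) and Bcl6, a repressor, by −1.49 (adjusted p = 0.0483) in ST-HSC, and 1 of the 3 probe sets of Id2 did not pass. Irf4, a factor of type 2 cells, differed by −0.89 (adjusted p = 0.148), and the median of the list was −0.33. The count of 3 was 1 without KI ST-HSC replicate 2 1 with the Xist covariate and 2 by SAM.

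Of 9 receptors of dendritic cell progenitors, 4 fell and 1 rose in KI ST-HSC. The cytokine receptors Csf1r (−7.10, adjusted p = 0.00149) and Flt3 (−2.69, adjusted p = 0.0215), the inhibitory receptor Btla (−4.52, adjusted p = 0.00301) and the chemokine receptor Ccr2 (−2.84, adjusted p = 0.00784) fell. Csf2rb, a signaling chain shared by the receptors of several cytokines, rose by 1.72 (adjusted p = 0.0149), and in GMP it rose by 1.90 (adjusted p = 0.0111) while Csf1r fell by 3.92 (adjusted p = 0.0409). With the Xist covariate 2 of the receptors were lower in ST-HSC and 0 in GMP, and by SAM 3 and 0. The rise of Csf2rb was not called by SAM in either population, nor in GMP by a fit of those 6 arrays alone. Of the probe sets of Csf1r and of Ccr2, 1 each did not pass in ST-HSC. Among 13 genes of maturation and migration, 1 fell in ST-HSC, the costimulatory ligand Cd86 (−4.42, adjusted p = 0.0198), and none in GMP, where 2 were lower and 1 higher at an unadjusted p under 0.05. The call of Cd86 was lost with the Xist covariate and when 1 of the KI ST-HSC arrays was left out, whichever it was. The chemokine receptor Ccr7 differed by −1.66 (adjusted p = 0.239), with a WT ST-HSC value of 7.11 in replicate 3 and 5.05 and 3.92 in the others.

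Relatives of the described genes were mostly without a call. Of 16, 1 fell in both populations, the sialic acid-binding receptor Siglecf, with a difference of −2.79 (adjusted p = 0.00389) in ST-HSC and of −2.62 (adjusted p = 0.00742) in GMP, and 0 by SAM. Itgam and Itgb2, the CD11b chain and the β2 chain that pairs with CD11c, differed by −0.61 (adjusted p = 0.107) and −0.23 (adjusted p = 0.855) in ST-HSC. The cystatin Cst7 differed by 0.93 (adjusted p = 0.24) and the E protein Tcf3 by 0.14 (adjusted p = 0.887). Thus the partner chain Itgb2, at 9.98 to 11.22 in WT ST-HSC and 10.01 to 10.39 in KI ST-HSC, overlapped between genotypes where Itgax did not.

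Markers of other cells that a sorted liver fraction could hold were measured beside these results in ST-HSC. The shares over all genes given with the dendritic cell lists apply to the counts of markers too. Of 10 macrophage markers none fell in limma, 4 being lower at an unadjusted p under 0.05. Of them 1 rose (Cd163, by 1.19, adjusted p = 0.00428). Differences were below 0 for 8 of the 10, against 9553 of all 18193 genes, with a median of −0.74. All KI arrays lay below all WT arrays for 4 of the 10. The mean level of the markers was 4.15 to 4.27 in KI and 4.49 to 5.02 in WT. The paper counts Csf1r and Irf8 among the macrophage genes lower in mutant ST-HSC. Both fell here too, but they are in other lists, so that the 10 markers do not stand for all macrophage genes. Adgre1 stood at 3.42 to 3.72 in KI and 3.70 to 5.50 in WT. Of 7 B lineage markers 2 fell, and their mean was 4.54 to 4.67 in KI and 5.61 to 6.90 in WT. Of 7 T and NK cell markers 2 rose and none fell, of 8 granulocyte and 8 endothelial markers none passed the test (2 and 3 at an unadjusted p under 0.05), and none of these lists had a call by SAM in ST-HSC. All 4 hepatocyte markers had a difference below 0, with a median of −1.44 beside −1.43 for the dendritic cell genes, and 3 were lower at an unadjusted p under 0.05. Their mean level was 5.73 to 5.86 in KI and 6.50 to 7.61 in WT, without overlap. Of these, Afp (alpha-fetoprotein) fell by 1.53 (adjusted p = 0.00582), and its other 4 probe sets did not pass (adjusted p of 0.331 to 0.791). Of 6 sort markers, Cd34 fell and Slamf1 and Fcgr3 rose in KI ST-HSC, and Cd34 fell in KI GMP-like cells. Their part in the differences of the dendritic cell genes was not tested.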

How the data were processed

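The deposited values are log2 RMA values that the authors made in R-Bioconductor (RMA version not given in the sources used here) from 12 MG430 v2 arrays, after linear amplification of 10 ng of RNA per sample. RMA corrects the background, aligns arrays by quantiles and summarizes probes, which compresses differences of dim probe sets. Signals carry no read depth, and 3 arrays per group limit the precision. After removal of 64 control probe sets, 45037 entered the test. Of these, 34945 have 1 symbol in the platform annotation, giving 18193 genes by their brightest probe set. KI minus WT in each population, and the difference of the differences, were estimated in R 4.3.3 by limma 3.58.1 (functions lmFit, contrasts.fit and eBayes) over 12 arrays and 4 group means with 8 residual degrees of freedom, and called at a Benjamini-Hochberg adjusted p under 0.05. The authors used SAM, run here anew as an alternative with 20 relabellings and a median of 0 false calls.

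The members and the gene lists were chosen with earlier results of these data known. Named genes are all members, from each list the 4 genes of lowest adjusted p per comparison, Xist, Spi1, sort markers, and the 3 genes most like each called member. Itgae, Irf4, Ccr7, Itgam, Itgb2, Cst7, Tcf3 and Adgre1 were named for their role, after their values were seen, where that rule did not name them. The alternatives were a fit of 6 arrays, subtraction of array medians, quantile normalization, a filter on low values (a log2 value of 6 or more in 3 or more arrays), eBayes with trend and robust, SAM, a replicate block, averaging the probe sets of a gene, no probe sets with the suffix _x_at or _s_at, and leaving out each array. The Xist covariate and leaving out WT arrays of high Xist were added after seeing the data. The fit was tested on simulated data. Promoters are from RefSeq (GRCm38.p6).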

Additional observations from a re-analysis of the deposited data

How the results depend on the processing

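Of the alternatives run for the 9 genes, 567 results kept their direction and side of the threshold (or stayed uncalled), 10 lost a call, 8 gained one, and no called result reversed. Differences that were not called changed sign in 11 instances over 8 results of 6 genes, among them Zbtb46 in GMP under 4 alternatives. In ST-HSC the number of members lower in KI was 3, and 0 by SAM, which called 41 probe sets higher and 120 lower, 2 with the filter on low values, 4 with array medians subtracted, quantile normalization, eBayes with trend and robust or the mean of all probe sets, where Cd209a joined, and 3 to 4 when 1 array was left out. Itgax and Cst3 were called in 22 of 23 alternatives and Clec10a in 21 of 22, each missing in SAM alone. In GMP the number lower was 1, and it was 0 with the 6 arrays alone, with the filter on low values (which Clec10a does not pass), by SAM and with the Xist covariate, 2 with the mean of all probe sets, and 0 to 2 when 1 array was left out, the 2 being without WT ST-HSC replicate 3, where Cst3 joined. For the difference between the populations, the number was 0, and 0 to 1 when 1 array was left out, Itgax being called without WT ST-HSC replicate 3. Same-numbered KI and WT arrays correlated in their deviations at 0.03 to 0.07 in ST-HSC and at −0.04 to −0.004 in GMP. With a replicate block 3 members were lower in ST-HSC, 1 in GMP, and 0 differed between the populations, the same counts as without it. In ST-HSC each KI array correlated best with the WT array of its own number, and in GMP none did. Whether same-numbered arrays share more than a number was not tested. The cause of the changes between the settings was not tested. Of the further named genes, 5315 results kept their side of the threshold, 168 lost a call and 64 gained one. Dim genes such as Cd209a and Clec10a lie where RMA compresses differences, and 3 arrays per group limit what could be called.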
